A study of Homo sapiens with 2 samples.

Results

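The transcripts described are those of the JAK tyrosine kinases and the STAT transcription factors, JAK1, JAK2, JAK3, TYK2, STAT2, STAT3, STAT5A, STAT5B and STAT6, in EOL-1 cells. Probe sets were taken where one of these 9 symbols was the only gene symbol in the platform's annotation table. This gave 25 probe sets for 8 of the 9 genes, out of 41097 probe sets with 1 symbol for 19775 genes. No probe set was assigned to STAT2 in this way, and it is not analysed here. EOL-1 was established from a human eosinophilic leukaemia and expresses FIP1L1-PDGFRA, a fusion that makes the PDGF receptor alpha kinase constantly active. One group was a culture of these cells kept with 100 nM Glivec (imatinib, a tyrosine kinase inhibitor) for 4 h, and the other was an untreated culture of the same line. Both cultures grew in the same serum-containing medium and were rinsed before RNA was taken, so the 2 groups share the line, its fusion kinase and its medium. There was 1 array per group. No difference below therefore has a replicate check, no test was run between the groups, and no p-value is given.

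JAK kinases sit on the inner tails of cytokine receptors that have no kinase of their own. When a ligand joins the receptor chains, the JAKs phosphorylate each other and the receptor, STAT proteins dock there and are phosphorylated in turn, and STAT dimers enter the nucleus and bind DNA, often at the palindrome TTCNNNGAA. In eosinophils and their precursors this route carries the signals of interleukin-3, interleukin-5 and GM-CSF, mainly through JAK2 and STAT5. The FIP1L1-PDGFRA fusion and related tyrosine kinase fusions are known to lead to STAT5 phosphorylation as well. An expression array measures the transcripts of these proteins, not their phosphorylation.

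Signals are intensities on a linear scale. Values under a floor of 13.7, the median signal over both arrays without the control probe sets, were replaced by the floor. The log2 ratio of Glivec over untreated was then taken, and with 1 array at the floor it is a bound. The brightest probe set stood for a gene, and a gene with an array above the floor counted as measured, which 12705 genes did. All 8 JAK and STAT genes with a probe set were measured. Of their 25 probe sets, 17 were above the floor on both arrays, 3 on 1 array, and 5 on neither. How far probe sets of the same gene differ was the only error at hand, and it holds nothing of the variation from culture to culture. Pooled over genes in 4 equal classes of signal, the SD of the log2 ratio between probe sets was 0.41 in the dimmest class, 0.34 and 0.29 in the middle ones, and 0.24 in the brightest.

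None of the 8 measured JAK and STAT genes was 2-fold different between the arrays. At least 2-fold higher with Glivec were 3.13% of all 12705 measured genes, and at least 2-fold lower were 2.63%. With shares this small, a count of 0 among 8 genes is near the background. The split of 398 higher and 334 lower genes behind these shares turned to 290 and 398 with quantile normalization, 299 and 421 with median centring, and 273 and 412 after a loess trend was removed. The 8 log2 ratios lay between -0.47 for JAK2 and 0.72 for JAK3. Their median was 0.16, beside 0.10 for all measured genes, and 6 of them were above 0, as were 59% of all measured genes. Past 1.5-fold, 2 of the 8 (JAK3 and STAT6) were higher, where 13.5% of all genes were higher, and 0 were lower, where 8.33% of all were lower. Of the 17 probe sets above the floor on both arrays, 14 were brighter on the Glivec array and 3 were dimmer. Among all 21073 named probe sets above the floor on both arrays, 56.1% were brighter on the Glivec array. Several of the 17 read the same gene, so they are not separate observations.

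**Figure D1:**
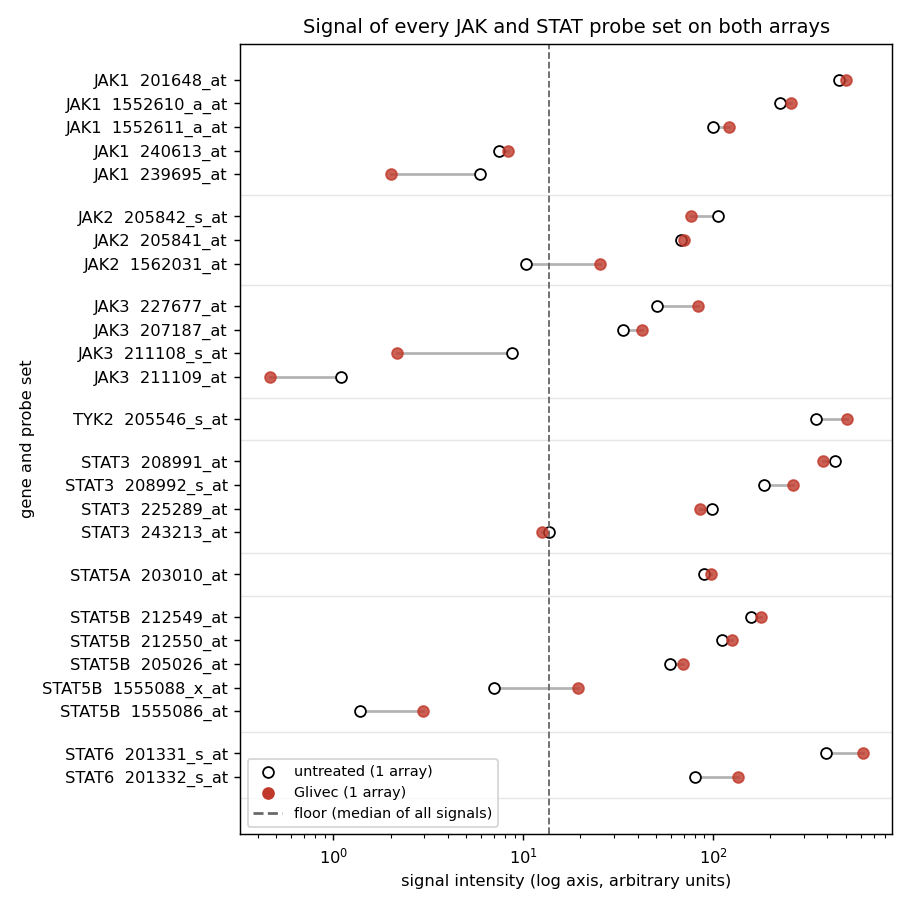
Signal intensity (log axis) of each of the 25 JAK and STAT probe sets, with an open point for the untreated array, a filled point for the Glivec array and a dashed line at the floor of 13.7. In 17 rows both points lie right of the floor, and in each of them the pair differs by less than 2-fold.

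Among the kinases, JAK1 (Entrez gene 3716) encodes a JAK used by gp130, gamma chain and interferon receptors. Its brightest probe set, 201648_at, had a signal of 503 with Glivec and 458 untreated. The probe set 1552610_a_at gave 256 and 225, and 1552611_a_at gave 122 and 99.5. All 3 were brighter on the Glivec array, by log2 ratios of 0.13, 0.19 and 0.29, which is within 1 SD between probe sets in their signal classes. A pair of further JAK1 probe sets, 240613_at (8.35 and 7.43) and 239695_at (2.02 and 5.93), stayed below the floor on both arrays.

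JAK2 (Entrez gene 3717) encodes the kinase that serves the common beta chain and the receptors for erythropoietin and thrombopoietin. The signal of 205842_s_at was 76.8 with Glivec and 106 untreated, a log2 ratio of -0.47. At 205841_at it was 69.9 and 68.0, a ratio of 0.04. The third probe set, 1562031_at, had 25.5 with Glivec and 10.4 untreated, which is below the floor, so JAK2 was at least 1.86-fold higher by this probe set. The 3 JAK2 probe sets thus gave a lower, a nearly equal and a higher value, and no direction can be given for the gene. The gap of 0.51 between the first pair was matched or passed in 22.5% of the 3006 genes with 2 probe sets above the floor on both arrays.

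JAK3 (Entrez gene 3718), the kinase tied to the common gamma chain, had the largest ratio of the 8 by their brightest probe sets. This rank depended on the processing. STAT6 was above JAK3 with quantile normalization (0.69 against 0.63) and loess (0.66 against 0.60). With the mean over probe sets, STAT6 (0.70) and TYK2 (0.54) were both above JAK3 (0.53). The JAK3 signal at 227677_at was 83.5 with Glivec and 50.7 untreated, or 1.65-fold higher. At 207187_at it was 42.5 and 33.7, or 1.26-fold higher. The log2 ratios of 0.72 and 0.34 had the same sign and a mean of 0.53 ± 0.27 (SD, n = 2 probe sets), and the larger lay at percentile 91.4 of all measured genes. The probe sets 211108_s_at (2.15 and 8.70) and 211109_at (0.464 and 1.10) were below the floor on both arrays and give no ratio.

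TYK2 (Entrez gene 7297) encodes the kinase that pairs with JAK1 on type I interferon receptors and with JAK2 on interleukin-12 receptors. It rests on 1 probe set, 205546_s_at, with signals of 506 and 347. This is 1.46-fold higher with Glivec, a log2 ratio of 0.54 at percentile 84.4. The difference is larger than the SD of 0.24 between probe sets of that brightness, but no other TYK2 probe set checks it.

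**Figure D2:**
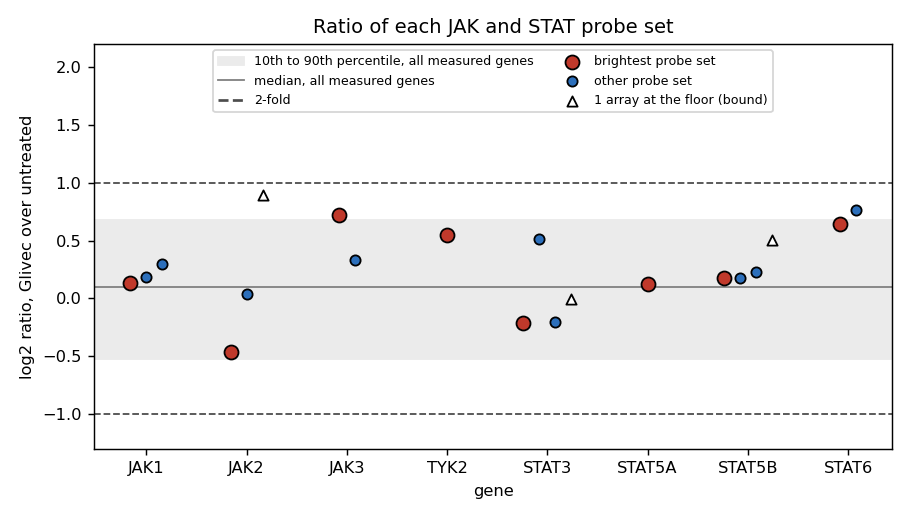
Log2 ratio of Glivec over untreated for each JAK and STAT probe set with an array above the floor; large red points are the brightest probe set of a gene, blue points the others, open triangles bounds with 1 array at the floor, the grey band the 10th to 90th percentile of all measured genes (-0.52 to 0.68) and dashed lines 2-fold. Every point lies inside the 2-fold lines, and the points of JAK2 and STAT3 fall on both sides of 0. A STAT6 point at 0.76, a JAK3 point at 0.72 and a JAK2 triangle at 0.89 lie above the band. The JAK2 triangle is a lower bound, so the floor keeps it inside the lines.

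Among the transcription factors, STAT3 (Entrez gene 6774), the factor of gp130 and G-CSF signalling, was uneven between probe sets. The signal of 208991_at was 380 with Glivec and 441 untreated, and that of 225289_at 85.0 and 98.1. Both were dimmer on the Glivec array, with log2 ratios of -0.21 each. At 208992_s_at the signals were 263 and 185, brighter on the Glivec array by 0.51. These 3 values averaged 0.03 ± 0.42 (SD, n = 3 probe sets). Their range of 0.73 was reached by 22.0% of the 1525 genes with 3 probe sets above the floor on both arrays, and 45.3% of those genes had values of both signs. Another probe set, 243213_at, was below the floor with Glivec (12.5) and barely above it untreated (13.74).

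STAT5A (Entrez gene 6776) and STAT5B (Entrez gene 6777) encode closely related factors and lie next to each other and to STAT3 in RefSeq's gene order. STAT5A had 1 probe set, 203010_at, with signals of 98.0 with Glivec and 89.6 untreated, a log2 ratio of 0.13. STAT5B had signals of 179 and 158 at 212549_at, 125 and 111 at 212550_at, and 69.5 and 59.5 at 205026_at. The 3 log2 ratios of 0.18, 0.18 and 0.22 averaged 0.19 ± 0.03 (SD, n = 3 probe sets). Their range of 0.05 was among the narrowest for genes with 3 such probe sets, 98.4% of which had one at least as wide. STAT5A and STAT5B were thus at percentiles 53.0 and 57.9 of all measured genes, close to the middle. A cross-hybridising probe set of STAT5B, 1555088_x_at, had 19.4 with Glivec and 7.04 untreated, at least 1.42-fold higher, and 1555086_at (2.96 and 1.39) was below the floor.

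STAT6 (Entrez gene 6778), the factor of interleukin-4 and interleukin-13 signalling, had the largest ratio among the STAT genes. Its signal was 615 with Glivec and 393 untreated at 201331_s_at, and 136 and 80.3 at 201332_s_at. Both were brighter on the Glivec array, 1.56-fold and 1.69-fold. The log2 ratios of 0.65 and 0.76 averaged 0.70 ± 0.08 (SD, n = 2 probe sets), and the gene lay at percentile 88.8. STAT4, a further STAT gene, was dim, at 22.3 and 20.7.

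These directions depend on how the arrays are scaled. Spike-in transcripts, normally put into each hybridisation at the same amount, are read by 18 probe sets, whose log2 ratios ran from 0.42 to 0.89 around a median of 0.74. When the arrays were scaled to these, the all-gene median went from 0.10 to -0.64 and that of the 8 JAK and STAT genes from 0.16 to -0.58. All 8 ratios were then below 0, from -1.21 for JAK2 and -0.95 for STAT3 to -0.09 for STAT6 and -0.02 for JAK3. JAK2, by 205842_s_at, was the only gene of the 8 past 2-fold, where 2694 of all 12705 measured genes were at least 2-fold lower. With that many lower genes, a count of 1 among 8 does not set these genes apart. This scaling shifts every log2 ratio by the same amount. The median of the 8 genes therefore stayed 0.06 above that of all genes by construction. Quantile normalization, median centring and a loess trend kept the sign of all 8, with JAK3 between 0.60 and 0.64, STAT6 between 0.57 and 0.69, and TYK2 between 0.47 and 0.58.

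**Figure D3:**
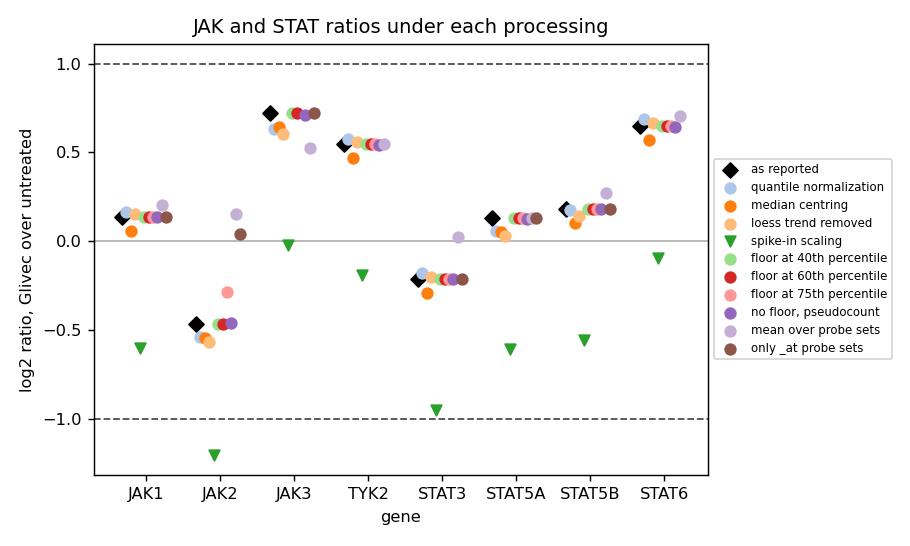
Log2 ratio of Glivec over untreated for the 8 genes as reported (black diamonds) and under each alternative processing (coloured points; green triangles, spike-in scaling), with dashed lines at 2-fold. Spike-in scaling puts all 8 genes below 0, and JAK2 at -1.21 is the only point outside the dashed lines.

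The genes around the JAK and STAT proteins were read from lists by role. The cytokine receptors came to 29 measured genes, of which 0 were at least 2-fold higher and 2 at least 2-fold lower, with a median log2 ratio of 0.15. The 2 lower ones belong to the gamma chain group, whose median was -0.45 over 9 genes. Its count of lower genes was 1 with only _at probe sets and 0 with the floor at the 75th percentile, and its median turned to 0.24 with only _at probe sets and 0.09 with the mean over probe sets. IL2RA, the alpha chain of the interleukin-2 receptor, had signals of 37.9 with Glivec and 90.5 untreated, and another probe set at -2.21. IL15RA, its interleukin-15 counterpart, had 22.8 and 53.3. The shared gamma chain gene IL2RG was at 664 and 475, a ratio of 0.48.

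For the receptors of interleukin-3, interleukin-5 and GM-CSF, 3 of 4 genes were measured, with a median of -0.32, and none was past 2-fold. CSF2RB, their common beta chain, had 391 with Glivec and 693 untreated, 1.78-fold lower by its only probe set. The GM-CSF chain CSF2RA was at 122 and 106, and the interleukin-3 chain IL3RA at 26.1 and 32.6. The interleukin-5 chain IL5RA was below the floor on both arrays (7.51 and 7.49). The gp130 and interleukin-12 group (6 measured), the single chain receptors (4) and the interferon and interleukin-10 group (7) held 0 genes past 2-fold, with medians of 0.23, 0.52 and 0.13. Their largest ratios were IL6ST (gp130) at 0.66 and IL27RA at 0.65, PRLR at 0.57 and LEPR at a bound of 0.52, and IL10RB at 0.77 and IL10RA at 0.65. IL6ST had other probe sets from -0.31 to 0.39.

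Proteins that act beside or against the kinases also lay within 2-fold, apart from the SOCS family. The PIAS and phosphatase list had a median of 0.24 over 9 genes, with the ubiquitin ligase gene CBL at 0.71 (-0.09 to 1.01 by other probe sets) and PIAS3, an inhibitor of STAT3 binding to DNA, at 0.42. PTPN6, the SHP-1 phosphatase, was nearly equal at 1053 and 1028. The adaptors had a median of 0.07 over 7 genes, from -0.35 for PTPN11 (the SHP-2 phosphatase) to 0.51 for the docking protein gene GAB2. The nuclear partners had a median of 0.29 over 6 genes, with the acetyltransferase genes CREBBP at 0.89 and EP300 at 0.74, or as low as -0.19 and 0.27 by other probe sets. IRF9, which joins STAT2 in the interferon-induced complex ISGF3, had 120 with Glivec and 189 untreated, a ratio of -0.65.

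The SOCS family are inhibitors that STAT proteins induce and that then bind JAKs or receptors. Of its 8 genes 4 were at least 2-fold lower and 0 higher, with a median of -1.11, which was -0.67 and -0.66 with the floor at the 60th and 75th percentile and -0.66 with only _at probe sets. CISH had a signal of 46.7 with Glivec and 318 untreated, 6.80-fold lower, and its other probe sets were at -2.18 and -2.01. SOCS1 had 22.6 and 191, 8.43-fold lower, with others at -1.70 and 0.36. SOCS2 had 272 and 895, 3.29-fold lower, and -2.02 by its other probe set. SOCS3 had 6.70, below the floor, and 40.1, at least 2.93-fold lower, and -0.85 by its other probe set. SOCS4 was at -0.66, or -1.25 by its other probe set. By their brightest probe sets, SOCS5, SOCS6 and SOCS7 lay between -0.30 and 0.21. Other probe sets ran from 0.20 to 0.34 for SOCS5, -0.81 to 0.10 for SOCS6 and -0.32 to -0.19 for SOCS7.

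**Figure D4:**
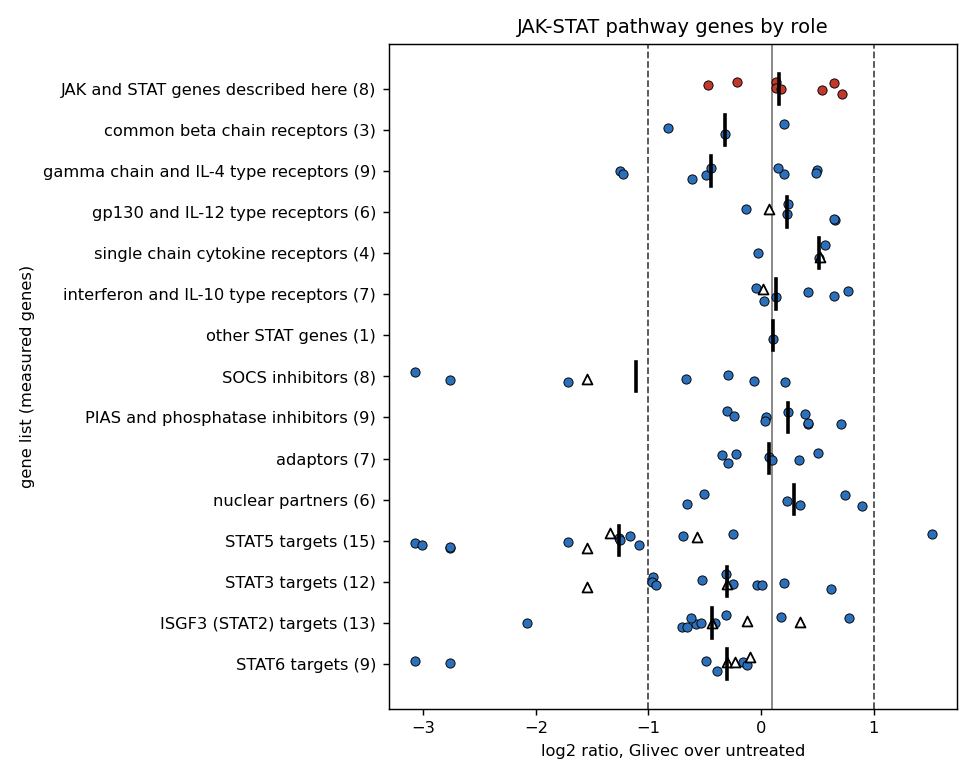
Log2 ratio of Glivec over untreated for each measured gene of the JAK-STAT lists, 1 row per list with the number of genes; triangles are bounds, short black bars list medians, the grey line the median of all measured genes (0.10) and dashed lines 2-fold. All 8 JAK and STAT genes lie inside the dashed lines, and 2 gamma chain receptors lie below them. The SOCS, STAT5 and STAT6 target rows reach below -3, and the lowest point of each is the same gene, SOCS1.

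Genes that STAT5 is known to induce or repress had the lowest median of these lists, under the reported processing and all alternatives run. Of 15 measured genes 11 were at least 2-fold lower and 1 at least 2-fold higher, with a median log2 ratio of -1.26. Beside the 4 SOCS genes, the survival kinase gene PIM1 had 221 with Glivec and 1782 untreated, 8.06-fold lower. The growth regulator MYC had 557 and 3781, 6.78-fold lower. Cyclin D3 (CCND3) was at 857 and 1924, the survival gene BCL2L1 at 46.4 and 111, and PIM2 at 50.2 and 107. The cytokine gene OSM, with 3.02 and 34.7, was at least 2.53-fold lower, and at -0.42 by its other probe set. BCL2L1 was at -0.63 and -0.28 by other probe sets. The measured genes lower by less than 2-fold were CCND2 (-0.69), ID1 (a bound of -0.57) and MCL1 (-0.25). By 5 other probe sets, MCL1 was higher with Glivec, from 0.02 to 0.98. BCL6, a transcriptional repressor whose gene STAT5 is known to repress, was the higher one, at 356 and 125, or 2.86-fold, with other probe sets from 0.21 to 1.59.

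The target lists of the other STAT factors held fewer such genes, but the floor of 13.7 limits this contrast. A gene whose untreated signal is less than 2-fold above the floor cannot count as 2-fold lower. Measured targets of this kind were ID1 for STAT5, HGF for STAT3, and FCER2, CCL26, CCL24 and GATA3 for STAT6. For ISGF3 they were IFIT1, OAS2, OAS3, IFI44 and IFI6, so the lists are not compared evenly by these counts. STAT3 targets had 1 of 12 genes at least 2-fold lower and a median of -0.30. That gene was SOCS3, which is also on the STAT5 list, and the count was 0 with the floor at the 60th or 75th percentile. VEGFA, a blood vessel growth factor gene, was 1.96-fold lower (304 and 596), the adhesion molecule gene ICAM1 1.95-fold and CEBPB 1.91-fold, whereas JUNB was at 0.62. CEBPD was at -0.53, but at -1.52 by its other probe set. Other probe sets ran from -0.80 to -0.55 for VEGFA and from -0.73 to -0.72 for ICAM1. STAT6 targets had 2 of 9 at least 2-fold lower, CISH and SOCS1, both of them also STAT5 targets, and 0 with only _at probe sets. The other 7 STAT6 targets were between -0.49 and -0.10, where FCER2, CCL26 and GATA3 are bounds with 1 array at the floor. ISGF3 targets, which need STAT2, had 1 of 13 at least 2-fold lower and a median of -0.43. It was RSAD2, an antiviral enzyme gene, with 28.7 and 121, 4.21-fold lower, while IRF7, a factor that amplifies interferon, was at 0.78. The ISGF3 count was 0 with the floor at the 75th percentile. Counted together, 2 of 60 genes for JAK and STAT proteins, receptors, adaptors, partners, PIAS and phosphatases were at least 2-fold lower. It was 11 for the 46 SOCS and target genes not among them, and 2.63% over all measured genes. IL2RA, on the STAT5 list too, is counted in the 60. The lists were chosen with earlier results of these data known, so this contrast is no independent evidence. Many genes on these lists answer to other factors too, and with 1 array per group the counts describe these arrays alone. With spike-in scaling all list medians were below 0, from -1.999 for STAT5 targets and -1.84 for the SOCS family to -0.22 for the single chain receptors, and 13 STAT5 targets were at least 2-fold lower and 0 higher.

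As a description of the DNA around these genes, RefSeq's windows upstream of gene starts (assembly GRCh38.p14) were searched over the 250 bases before each start. The motif was TTCNNNGAA, which reads the same on either strand. It occurred in 6.57% of all 35116 windows and in a window of 8.09% of all 27305 genes. All 9 JAK and STAT genes had windows, 16 in total, and it occurred in 0 of these. Of 10 STAT5 target genes with a window, 2 held TTCNNNGAA, CISH and BCL6. It was also held by 3 of 10 ISGF3 targets, 3 of 8 STAT6 targets (CISH among them) and 1 of 10 STAT3 targets. Among receptor genes it was in 1 of 3 common beta chain, 1 of 5 single chain and 1 of 6 interferon and interleukin-10 type genes. The gamma chain and gp130 groups each had 1 of 8. It was in 1 of 5 SOCS genes (CISH) and 1 of 6 nuclear partners (IRF9, also an ISGF3 target). The PIAS and phosphatase list and the adaptors had 0. The motif was thus not particular to the target lists. Only this motif was searched, on every list alike, so the counts are not a search fitted to each factor. CISH held it 4 times, as TTCCTGGAA, TTCTTGGAA, TTCTAGGAA and TTCCGGGAA, starting 241, 230, 129 and 112 bases before the gene start. Only 5 of the 35116 windows held 4 or more. BCL6 held TTCCGAGAA, 28 bases before its start.

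Shown here, 5′ to 3′ on the gene's strand with the motif in capitals, are the CISH window (chr3:50611775-50612024, minus strand), for the lower gene with 4 matches, and the BCL6 window (chr3:187745469-187745718, minus strand), for the higher gene with 1. The STAT6 window (chr12:57110290-57110539, minus strand) has no match and belongs to the STAT gene of largest ratio.
CISH: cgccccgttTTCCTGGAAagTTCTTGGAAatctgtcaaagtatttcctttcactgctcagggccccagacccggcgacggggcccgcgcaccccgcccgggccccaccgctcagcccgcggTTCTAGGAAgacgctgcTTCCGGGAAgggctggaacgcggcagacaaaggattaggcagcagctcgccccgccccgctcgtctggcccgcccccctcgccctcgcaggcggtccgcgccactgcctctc
BCL6: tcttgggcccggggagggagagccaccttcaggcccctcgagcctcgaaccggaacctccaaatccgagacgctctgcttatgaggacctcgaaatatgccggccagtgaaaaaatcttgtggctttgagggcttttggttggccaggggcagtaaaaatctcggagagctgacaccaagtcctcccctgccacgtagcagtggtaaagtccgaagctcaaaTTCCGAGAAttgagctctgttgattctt
STAT6: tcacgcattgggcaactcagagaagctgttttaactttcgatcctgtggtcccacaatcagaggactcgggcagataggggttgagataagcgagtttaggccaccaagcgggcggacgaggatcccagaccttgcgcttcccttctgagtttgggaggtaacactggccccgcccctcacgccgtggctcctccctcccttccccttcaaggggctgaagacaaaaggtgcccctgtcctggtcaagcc
A match describes the letters of a window and not a bound site, and no match says only that these letters are not in this window.

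The labelled cell type was checked on the same arrays. Of 9 eosinophil marker genes with a probe set, 5 were measured. The granule protein genes PRG2 (6302 with Glivec and 4744 untreated) and RNASE2 (2872 and 2146) were bright, and EPX was above the floor on the Glivec array only (27.2 and 12.6). CLC was above it on the untreated array only (13.2 and 19.4), and ADGRE1 had 42.2 and 43.96. IL5RA, PRG3, SIGLEC8 and GATA1 were below the floor on both arrays. By the brightest probe set, 1 of 6 T cell marker genes was above the floor, CD3E, on the untreated array alone (21.0). Of 5 B cell marker genes with a probe set 2 were, CD79A (94.9 and 60.03) and CD79B (45.5 and 58.2). Another MS4A1 probe set was just above the floor on 1 array. Their part in the results was not tested.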

How the data were processed

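Biotin-labelled cRNA from 2 cultures was measured on Affymetrix arrays, per the labels. The submitters' processing notes name MAS5, in a version not stated, for the deposited intensities, which are linear. Trimming 2% at either end left a mean intensity of 100.014 on each array. Of 54675 probe sets, 41097 had 1 gene symbol, 1801 had several and 11777, 62 controls included, are unnamed here. Entrez identifiers matched 41043 of the 41097 to RefSeq's gene table, which changed 0 symbols. No genome build goes with the signals.

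From the deposited intensities, log2 ratios were computed above the floor. The threshold for counts was 2-fold. Probe sets with the suffix _x_at stood for a gene only where no other was present. The code was tested on simulated data. The JAK and STAT genes and the 17 gene lists (149 entries) were chosen with earlier results of these data known, so their counts are no independent evidence. List genes named were those past 2-fold, at most 4 by size and at least 2 per list, with others added after their values were seen. Alternatives (12) were other scalings (quantile, median centring, loess with span 0.3, spike-ins), a floor at percentile 40, 60 or 75, a pseudocount of 1 in place of the floor, averaging a gene's probe sets, leaving out suffixes other than plain _at, and thresholds of 1.5-fold and 3-fold. Calculations used Python 3.11.15, numpy 2.4.6, pandas 2.3.3, scipy 1.17.1, statsmodels 0.14.6 and matplotlib 3.10.9.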

Additional observations from a re-analysis of the deposited data

How the results depend on the processing

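No paired analysis was possible because there was 1 array on either side, which also left no replicate to drop. The number of arrays and signals near the floor limit every value. With spike-in scaling the median of the 8 JAK and STAT genes was -0.58 and 1 of them was at least 2-fold lower. Over all 12705 measured genes, 26 were then higher and 2694 lower. With the threshold at 1.5-fold, 2 of the 8 were higher, and over all genes 1711 were higher and 1058 lower; at 3-fold these were 56 and 86. The number of all genes higher was 735 with the floor at the 40th percentile and 234 at the 60th. At the 75th percentile it was 91, with 176 lower, and with no floor it was 2252, with 1705 lower. Under the other alternatives that gave values, the counts of the 8 genes past the threshold stayed at 0. JAK3 fell below the 75th percentile floor on both arrays, and TYK2 and STAT6 have no _at probe set, so these have no value there. With the mean over probe sets JAK2 was at 0.16 and STAT3 at 0.02, and with only _at probe sets JAK2 was at 0.04. The number of STAT5 targets at least 2-fold lower was 6 with the floor at the 75th percentile, 8 with only _at probe sets and 9 with the mean over probe sets, and that of SOCS genes was 2 with only _at probe sets. STAT3 targets at least 2-fold lower numbered 2 after quantile normalization or loess, 4 after median centring and 7 with spike-in scaling, and 0 with the floor at the 60th or 75th percentile. Spike-in scaling gave 9 ISGF3 targets and 5 STAT6 targets, against 0 ISGF3 targets with the floor at the 75th percentile and 0 STAT6 targets with only _at probe sets. The cause of these shifts was not tested.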
